A study of Mus musculus with 3 samples.

Results

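The nuclear-coded genes of oxidative phosphorylation (OXPHOS) were followed in single cells of the mouse fracture callus, the soft and then bony tissue that bridges a broken bone. Members were all genes whose symbol marks a subunit of complex I (Nduf genes of the a, b, c, s and v series), complex II (Sdha to Sdhd), complex III (Uqcr genes), complex IV (Cox4 to Cox8 genes) or complex V (Atp5 genes), without pseudogenes. This gave 84 of the 32285 genes in the files, with 37 in complex I, 4 in complex II, 8 in complex III, 18 in complex IV and 17 in complex V. Complexes were assigned by symbol, so Ndufa4, now counted with complex IV, and its paralog Ndufa4l2 stand in complex I throughout. Callus was taken from untreated C57BL/6 mice at day 7, day 10 and day 14 after femoral fracture, and cells without CD45, CD31 and TER119 were sorted and sequenced from the 3′ end in 1 droplet library a day. The labels do not say how many animals a library held. All comparisons below are therefore between sums over cells of single libraries, day and library cannot be told apart, and intervals (95%, exact) cover counting error only.

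Oxidative phosphorylation passes electrons along complexes I to IV of the inner mitochondrial membrane and uses the proton gradient they build to make ATP in complex V. Most subunits are coded in the nucleus, while a small core is coded by mitochondrial DNA, the mt- genes. Some nuclear subunits exist as paralogous isoforms that replace each other by tissue or by oxygen supply: Cox4i2 stands in for Cox4i1, and Ndufa4l2, known as a target of hypoxia-inducible factor, is the paralog of Ndufa4. Growing cartilage has few vessels and is known for high glycolysis, whereas bone-forming cells and pericytes lie beside vessels.

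Members were read in cells without a UMI of Ptprc, the gene of CD45, that lay within the limits stated for the study (500 to 5000 genes, at most 10% of UMIs from mt- genes and at most 5% from hemoglobin genes). Among them, 5 classes were cut by the level of a single gene in the cell: Aspn, a matrix gene of Postn+ osteoprogenitors; Cnmd (chondromodulin), of chondrocytes; Col10a1, of hypertrophic chondrocytes; Ifitm5, of osteoblasts; and Rgs5, of pericytes. Aspn-high cells numbered 13, 1315 and 3072 at day 7, 10 and 14, Cnmd-high cells 46, 2324 and 1293, Col10a1-high cells 5, 430 and 1076, Ifitm5-high cells 5, 111 and 324, and Rgs5-high cells 0, 73 and 191. A further 1, 193 and 144 cells were high for 2 or more of these genes and were left out. Each class led in the summed level of its own marker list: chondrocyte markers summed to 58064 CPM (UMIs of a gene per 1000000 UMIs of the class) in Cnmd-high cells at day 14 against 2687 CPM in Aspn-high cells, and pericyte markers to 12504 CPM in Rgs5-high cells against 163 CPM. Each list holds the gene that cut its class, which raised these sums. All 7 chondrocyte markers were higher past 1.5-fold at both days in Cnmd-high than in Aspn-high cells. So were all 7 osteoblast markers in Ifitm5-high and all 7 pericyte markers in Rgs5-high cells. All 7 markers of hypertrophic chondrocytes were higher in Col10a1-high than in Cnmd-high cells.

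The 3 libraries held 113127788, 144103160 and 195661880 UMIs. At day 7, only 447 of the 7017 cells within limits (6.37%) had no Ptprc UMI, against 99.9% and 98.2% at day 10 and day 14, so the sorted day 7 library went against its label and its classes held 69 cells in all. Day 7 classes carried 1559 to 1974 CPM of 8 neutrophil markers, against 0.977 to 6.26 CPM at day 10 and 27.4 to 242 CPM at day 14. Their part in the day 7 levels was not tested, and no ratio below rests on day 7. Libraries shared 29, 42 and 35 cell barcodes by pair, of which 9, all between day 10 and day 14, lay within the classes. At day 10 and day 14 markers of endothelial cells summed to 58.4 and 40.8 CPM in Rgs5-high cells and at most 4.62 CPM in the other classes. At these 2 days markers of macrophages and osteoclasts summed to at most 155 CPM in any class. Those of erythroid cells summed to at most 5.51 CPM and those of muscle cells to at most 9.82 CPM. At day 7 the classes held 196 to 360 CPM of erythroid markers and at most 24.9 CPM of muscle markers.

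The summed share of the 84 members was highest in Rgs5-high cells and lowest in the cartilage classes at both days. In Aspn-high cells the members took 2.00% of all UMIs at day 10 and 2.01% at day 14. In Cnmd-high cells they took 1.59% and 1.72%, and in Col10a1-high cells 1.64% and 1.75%. In Ifitm5-high cells they took 1.93% and 2.06%, and in Rgs5-high cells 2.34% and 2.49%. Intervals of the 5 shares did not overlap within a day, while the order of Aspn-high and Ifitm5-high cells was not the same at both days. Single cells overlapped widely: at day 14 the middle 50% of cells ran from 1.40% to 1.96% in Cnmd-high, from 1.71% to 2.25% in Aspn-high and from 2.01% to 2.77% in Rgs5-high cells. At day 7 the share was 1.64% in the 46 Cnmd-high cells. The other day 7 classes held 4130 member UMIs of 228478 (Aspn-high), 1440 of 117221 (Col10a1-high) and 1852 of 137886 (Ifitm5-high).

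**Figure D1:**
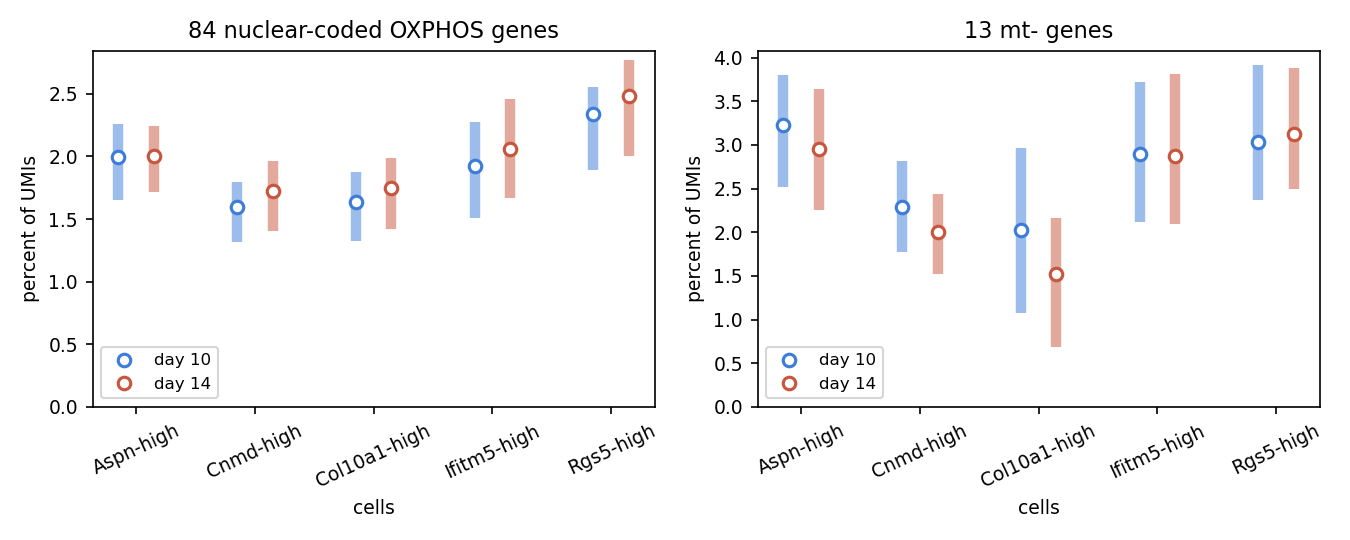
Percent of all UMIs from the 84 nuclear-coded OXPHOS genes (left) and the 13 mt- genes (right) in 5 classes of cells at day 10 (blue) and day 14 (red). Circles are the share of the summed UMIs of a class, and bars span the first to the third quartile of single cells. The nuclear-coded share is highest in Rgs5-high cells (2.34% and 2.49%), and the mt- share is lowest in Col10a1-high cells (2.03% and 1.52%).

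The 13 mt- genes did not keep the same order. They took 3.22% and 2.95% of UMIs in Aspn-high cells, 2.28% and 2.00% in Cnmd-high cells, 2.03% and 1.52% in Col10a1-high cells, 2.90% and 2.88% in Ifitm5-high cells and 3.04% and 3.13% in Rgs5-high cells at day 10 and day 14. Per UMI of a nuclear-coded member, the mt- genes thus gave 1.61 UMIs in Aspn-high cells at day 10 but 0.870 in Col10a1-high cells at day 14 (95% interval 0.866 to 0.875), the lowest of the 10 class and day values. Aspn-high cells had the highest ratio at both days, with 1.47 at day 14. The 13 genes had 1 exception in direction: mt-Nd6, the only one of them coded on the light strand, was higher in Cnmd-high than in Aspn-high cells (log2 ratio 0.50 and 0.39), while the other 12 were lower, mt-Nd4l most (-1.15 and -1.22).

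Within complexes, a few members held much of each sum. Ranked by level in Aspn-high cells at day 14, a scale of 3′ tags that is not divided by length, the leading pairs were Ndufa13 (469 CPM) and Ndufa4 (369 CPM) of complex I, Sdhb (117 CPM) and Sdhd (81.2 CPM) of complex II, Uqcrh (604 CPM) and Uqcrb (327 CPM) of complex III, Cox4i1 (1008 CPM) and Cox6c (758 CPM) of complex IV, and Atp5e (745 CPM) and Atp5g2 (615 CPM) of complex V. Cox4i1 builds the largest nuclear subunit of cytochrome c oxidase, and Atp5g2 codes for the rotor ring of ATP synthase, whose protein is also coded by Atp5g1 and Atp5g3. Such near-identical paralogs, and pseudogenes of the Cox and Atp5 genes, can share reads, so their split is less certain than their sum. Of the 84 members, 79 averaged at least 10 CPM over the 5 classes at day 10 and day 14 and were compared, among 7664 genes that passed the same limit. The others were Cox7a1, Cox6a2, Cox8b, Cox8c and Cox7b2. Of the 79, Rgs5-high cells were the highest class for 58 at day 10, 59 at day 14 and 52 at both, while the lowest class at both days was Col10a1-high for 29 and Cnmd-high for 25. The same ranks were not counted over all genes, so these counts have no background beside them. The 50 genes with most UMIs took 17.6% and 18.4% of UMIs in Rgs5-high cells, the least of the 5 classes.

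**Figure D2:**
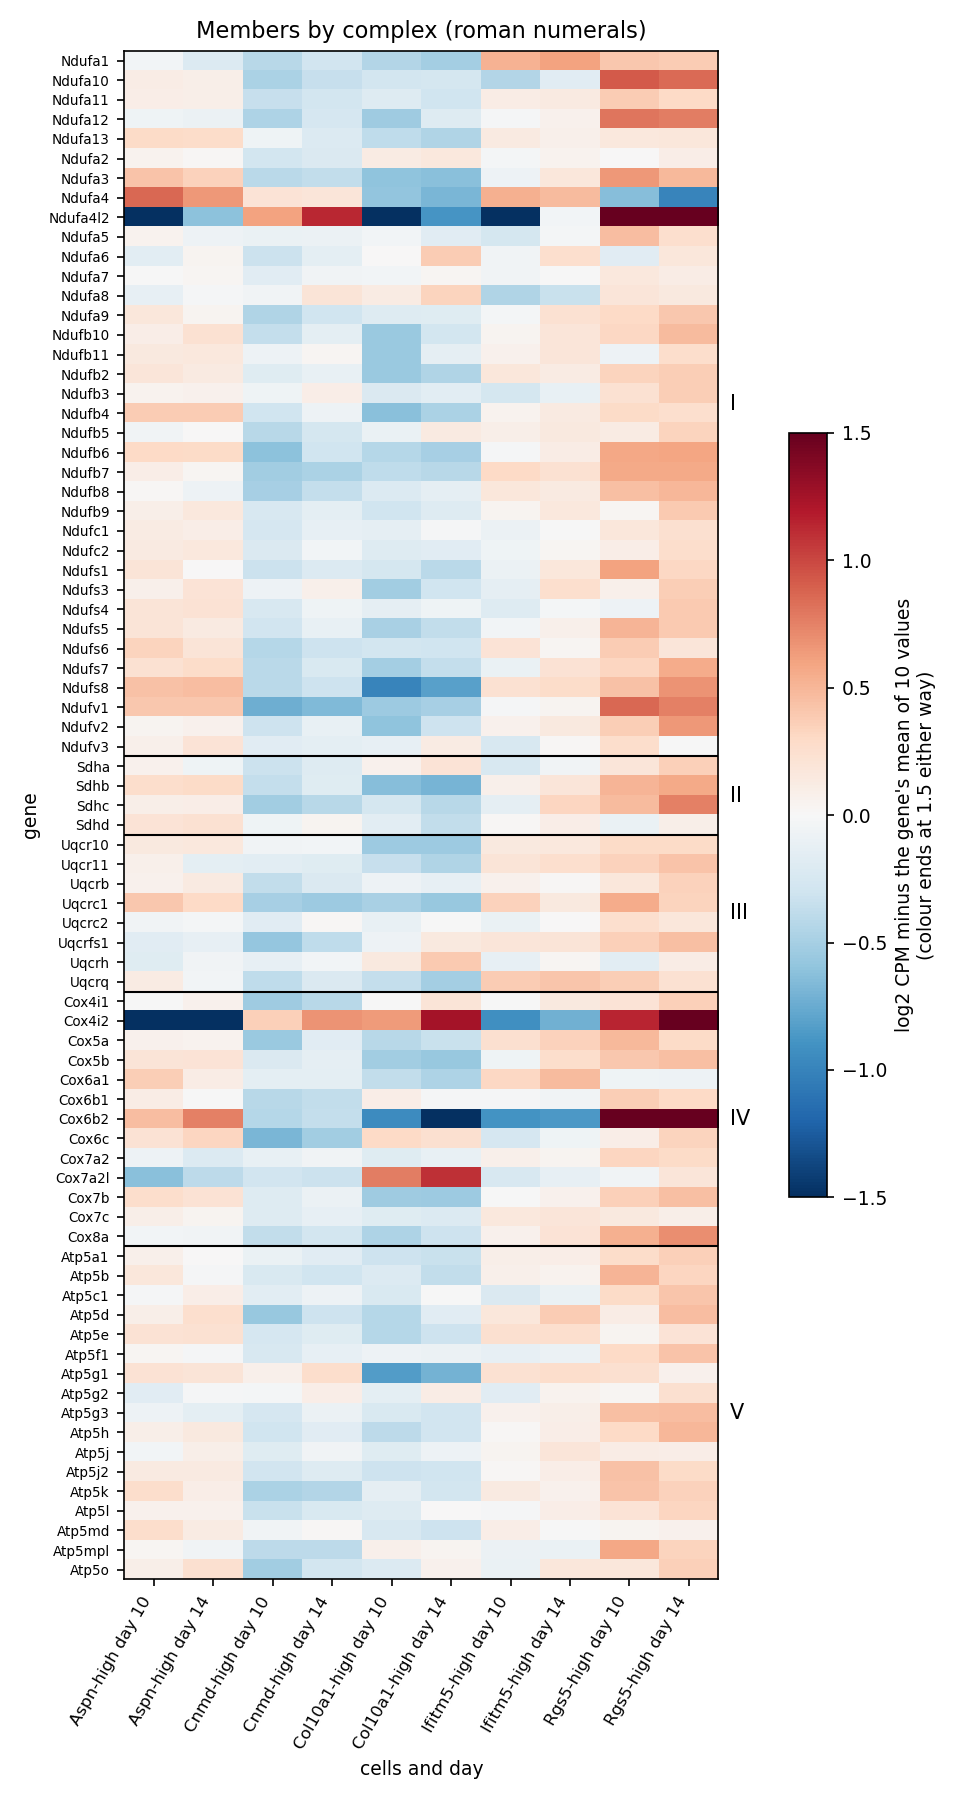
Level of the compared members, without 1 that is not reported here (rows, by complex I to V) in 5 classes at day 10 and day 14 (columns), as log2 CPM minus the gene's mean over the 10 values; red is above and blue below that mean. Most rows are red in the Rgs5-high columns and blue in the Cnmd-high and Col10a1-high columns, and Ndufa4, Ndufa4l2, Cox4i2, Cox6b2 and Cox7a2l follow patterns of their own.

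Promoters of members were searched for the letters of the binding site of NRF1, a transcription factor known to act on many nuclear genes of the respiratory chain. All 84 members were found in RefSeq (GRCm38.p6), and 68 had a promoter entry. The palindrome searched, shown in capitals below and the same on both strands, lay within the 250 bases before the start site in 4 of these 68 (5.88%), against 237 of 27025 genes with an entry (0.877%). The 4 windows are shown because they carry this match; capitals mark the palindrome, and each is read on the strand of its gene.
Atp5k, chr5:108434420-108434469, minus strand: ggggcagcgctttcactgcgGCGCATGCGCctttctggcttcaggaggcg
Cox6a1, chr5:115349091-115349140, minus strand: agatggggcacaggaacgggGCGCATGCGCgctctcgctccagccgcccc
Atp5g2, chr15:102671060-102671109, minus strand: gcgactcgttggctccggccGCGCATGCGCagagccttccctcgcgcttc
Ndufa11, chr17:56717682-56717731, plus strand: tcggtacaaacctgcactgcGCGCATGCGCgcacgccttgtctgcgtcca
These 4 genes did not share 1 pattern. Atp5k, a small subunit of ATP synthase, measured 213 CPM in Aspn-high and 128 CPM in Cnmd-high cells at day 10. Atp5g2 measured 550 and 610 CPM in the same classes, and was thus among the few members that were not lower in Cnmd-high cells. Cox6a1, a subunit of complex IV, and Ndufa11 of complex I measured 499 and 349 CPM, and 215 and 158 CPM. The letters ACGTG, the core of the hypoxia response element, lay on either strand in 14 of 68 members (20.6%), near the 18.5% of all genes. Ndufa4l2, Cox4i2 and Cox4i1 had no promoter entry, so neither search covered them.

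The first comparison asked how the members stood in chondrocytes against osteoprogenitors. In Cnmd-high cells the summed share was 1.25-fold lower than in Aspn-high cells at day 10 (log2 ratio -0.33, interval -0.33 to -0.32) and 1.16-fold lower at day 14 (-0.22, -0.23 to -0.21). Of 79 members, 68 were lower at both days, against 5132 of the 7664 genes compared, and the medians of the members were -0.40 and -0.26. The median of all 7664 genes was close to this, at -0.30 on both days, so relative to the median gene the summed share was 0.03 higher on the log2 scale. The 50 genes with most UMIs, which include collagens and ribosomal protein genes, took 30.8% and 30.2% of UMIs in Cnmd-high cells against 22.5% and 22.9% in Aspn-high cells, and with these left out of the total the mean log2 ratio was -0.12 in place of -0.27.

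Past 1.5-fold at both days, 2 members were higher and 6 lower in Cnmd-high cells, against 6.65% and 25% of all genes compared (2.53% and 7.59% of the members). The higher pair was Cox4i2 and Ndufa4l2. The 6 lower members were Ndufv1, which codes for the NADH-binding flavoprotein of complex I (70.1 and 70.1 CPM in Aspn-high against 32.0 and 33.5 CPM in Cnmd-high cells), Cox6b2 (12.6 and 15.4 against 6.78 and 7.11 CPM), Uqcrc1, a core protein of complex III (97.8 and 90.9 against 52.2 and 50.6 CPM), Cox6c (705 and 758 against 377 and 422 CPM), Ndufs8, an iron-sulfur subunit (110 and 112 against 61.4 and 65.4 CPM), and Ndufa3 (180 and 170 against 101 and 104 CPM). Ndufv1 was 2.19-fold and 2.10-fold lower. Relative to the median gene, only Ndufv1 and Cox6b2 stayed lower and the same pair stayed higher, with 11.3% of all genes higher and 14.8% lower. All 4 Sdh genes of complex II were lower at both days, none of them past 1.5-fold at both: Sdha, which holds the flavin site, measured 49.3 and 45.2 CPM in Aspn-high and 37.7 and 41.3 CPM in Cnmd-high cells.

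The second comparison followed maturing cartilage. The summed share hardly differed between Col10a1-high and Cnmd-high cells, at log2 ratios of 0.04 and 0.02. Its mean was -0.031 relative to the median gene and 0.11 with the 50 genes left out of the total, in place of 0.03, so no direction held over these scales. Summed by complex, complex IV was higher by 0.27 and 0.26, complex III by 0.10 and 0.10, whereas complex I was lower by log2 ratios of -0.11 and -0.14 and the mt- genes by -0.17 and -0.39. Few genes set these sums: without Ndufa4 and Ndufa4l2 the log2 ratios of complex I were 0.010 and 0.00091, and the medians over single members were 0.05 and -0.09 in complex I and 0.01 and -0.06 in complex IV, with 5 of 13 complex IV members above 0 and 6 below 0 at both days. Without the limit on mt- UMIs the mean for the mt- genes was -0.17 in place of -0.28. Members past 1.5-fold at both days were 3 higher and 3 lower, against 16% and 15.5% of all genes. Cox7a2l, the paralog of Cox7a2, was highest by ratio, with 200 and 195 CPM in Cnmd-high and 416 and 520 CPM in Col10a1-high cells (2.08-fold and 2.67-fold). Cox6c measured 377 and 422 against 748 and 713 CPM. Cox6c was thus low in Cnmd-high cells and stood in Col10a1-high cells near its level in Aspn-high cells. The lower members were Ndufa4l2, Ndufa4 and Atp5g1, the last at 407 and 465 against 216 and 236 CPM. Its paralog Atp5g2 measured 610 and 664 against 563 and 672 CPM, so the paralogs did not move alike. Relative to the median gene there were 2 higher members (Cox7a2l and Cox6c) and 4 lower ones, Cox6b2 joining the lower ones, with 14.2% and 17.1% of all genes.

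The third comparison set osteoblasts against osteoprogenitors. The summed share of Ifitm5-high cells lay below that of Aspn-high cells at day 10 (log2 ratio -0.053) and above it at day 14 (0.041), so no direction held over both libraries. The median of all genes was -0.33 on both days, and the top 50 genes took 36.0% and 35.2% of UMIs in Ifitm5-high cells, among them Col1a1, Col1a2, Sparc and Ibsp of bone matrix. Relative to the median gene, the mean log2 ratio of the summed share was 0.32, and it was 0.26 with the 50 genes left out of the total, in place of -0.01. On the plain scale 1 member, Cox4i2 (28.1 and 32.9 against 67.9 and 77.8 CPM), was higher and 1, Cox6b2 (12.6 and 15.4 against 4.88 and 5.03 CPM), lower past 1.5-fold at both days, against 5.94% and 24.6% of all genes. At day 14 the thinned shares of cells with a Cox4i2 UMI lay, in both classes, within the interval of cells with Ptprc. These shares are given with the isoforms below. For Ndufa4l2, too, the thinned shares of both classes lay within the interval of cells with Ptprc. Unthinned, 38.6% of Ifitm5-high cells had a Cox4i2 UMI, against 21.4% of cells with Ptprc (interval 15.5% to 28.3%). The part of background RNA in the Cox4i2 difference was not tested. Relative to the median gene 6 members were higher and 1 lower, against 9.8% and 14.8% of all genes. The 6 were Cox4i2, Ndufa4l2, Cox7a2l, Ndufa1, Uqcrq and Uqcrfs1. Ndufa1, a small membrane subunit of complex I, measured 138 and 123 CPM in Aspn-high and 203 and 215 CPM in Ifitm5-high cells, its highest class at both days. Uqcrq measured 306 and 274 against 368 and 375 CPM, and Uqcrfs1, the Rieske iron-sulfur protein of complex III, 76.3 and 78.7 against 97.7 and 98.1 CPM.

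The fourth comparison set pericytes against osteoprogenitors. Rgs5-high cells had a summed share 1.17-fold higher than Aspn-high cells at day 10 (log2 ratio 0.23, interval 0.21 to 0.25) and 1.24-fold higher at day 14 (0.31, 0.30 to 0.32). The median of all genes was 0.00 and 0.06, and 61 of the 79 members were higher at both days, against 3179 of the 7664 genes compared. All summed complexes were higher, with log2 ratios of 0.30 and 0.39 for complex I and 0.16 and 0.20 for complex V, though the interval of complex II at day 10 reached from -0.03 to 0.30. Without Ndufa4l2 the ratios of complex I were 0.087 and 0.16 and those of all members 0.16 and 0.24. Without both Ndufa4 and Ndufa4l2 they were 0.157 and 0.223 for complex I and 0.184 and 0.260 for all members. The medians over single members were 0.18 and 0.24 in complex I and 0.20 and 0.25 in complex V. The summed mt- genes were not higher alike, with -0.09 and 0.09. Rgs5-high cells had fewer UMIs (medians of 12514 and 9065, against 15101 and 14355) and more of 5 cycling markers (324 and 294 CPM against 110 and 51.7 CPM). They also held more of 5 endothelial markers (58.4 and 40.8 CPM against 1.41 and 3.56 CPM), whose part in the result was not tested. Without cells that had a UMI of a cycling marker the mean log2 ratio was 0.23, and among cells of 10000 to 20000 UMIs it was 0.34, beside 0.27 over all cells.

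Past 1.5-fold at both days, 5 members were higher and 1 lower in Rgs5-high cells, against 12.1% and 12.6% of all genes, and the same 5 and 1 relative to the median gene, against 11.3% and 13.3%. Ndufa4l2 and Cox4i2 led. Cox6b2, the isoform of Cox6b1 known from testis, measured 12.6 and 15.4 CPM in Aspn-high and 39.7 and 31.4 CPM in Rgs5-high cells, from 38 and 63 UMIs in the latter. Ndufa12 measured 95.7 and 94.2 against 174 and 170 CPM, and Ndufa10 79.9 and 78.0 against 140 and 133 CPM; both are accessory subunits of complex I. The lower member was Ndufa4. Cox8a, a small subunit of complex IV, did not pass at day 10 but stood at 964 and 1074 CPM against 645 and 639 CPM.

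**Figure D3:**
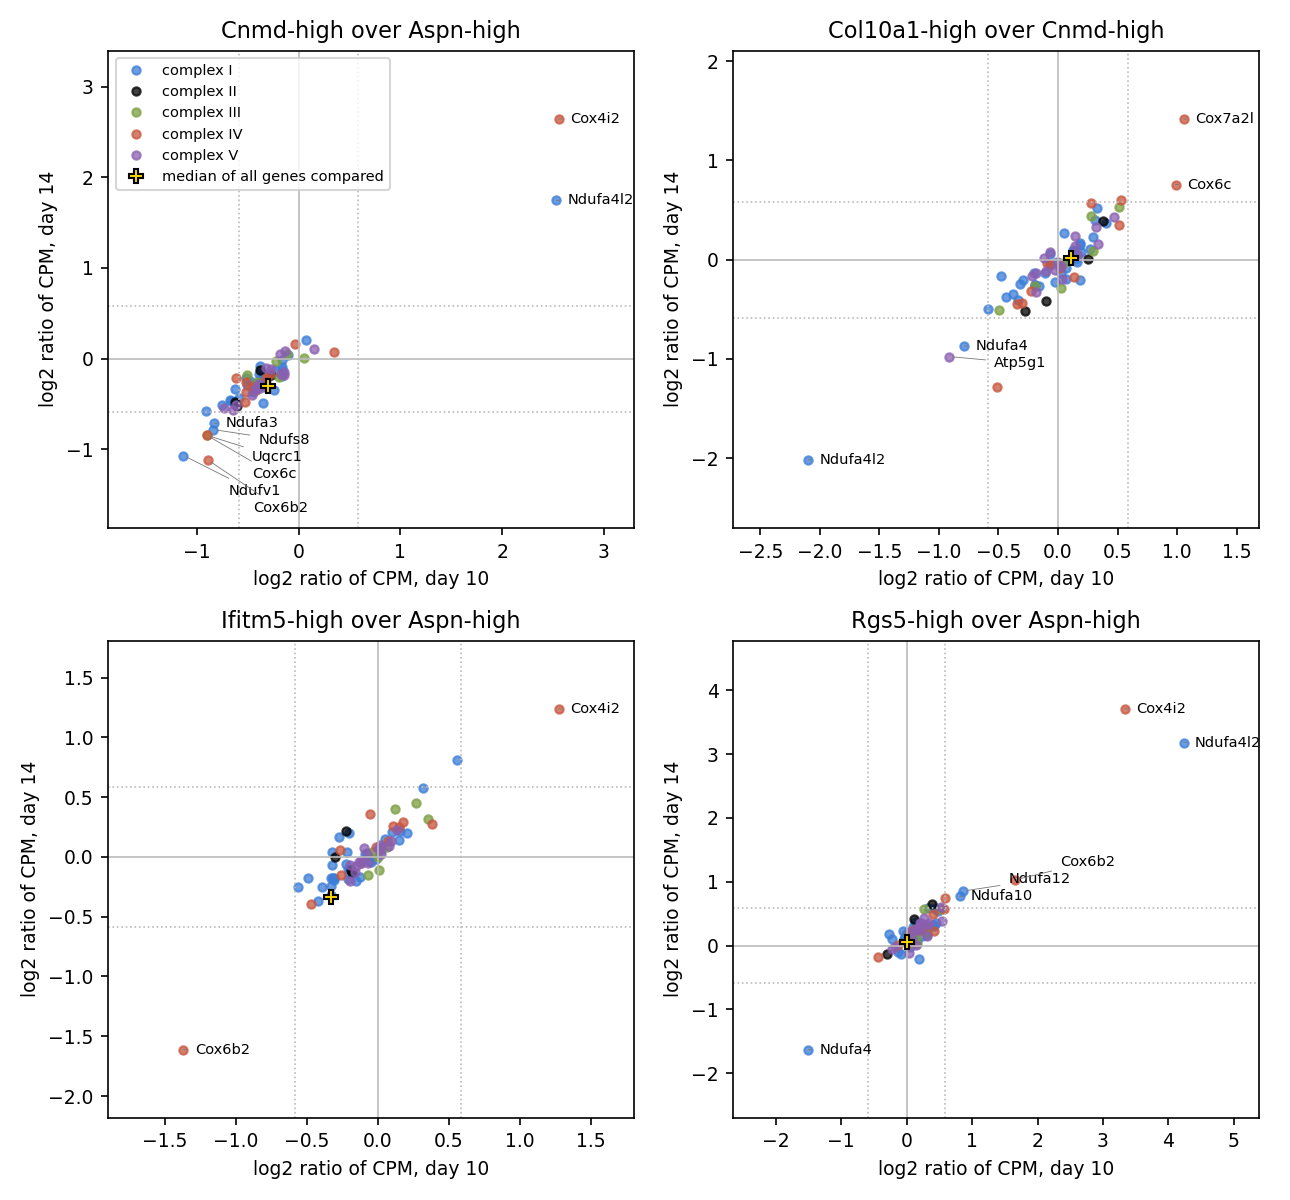
Log2 ratio of CPM between 2 classes for the compared members, without 1 that is not reported here, day 10 (horizontal) against day 14 (vertical), coloured by complex; dotted lines mark 1.5-fold, the yellow cross is the median of all 7664 genes, and members past 1.5-fold at both days are named. Each library gives 1 value an axis. In Cnmd-high over Aspn-high cells the members lie around the cross (-0.30 on both days), in Ifitm5-high over Aspn-high cells most lie above it, and Ndufa4l2 and Cox4i2 stand far from the rest in the Rgs5-high panel.

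The pair Ndufa4 and Ndufa4l2 differed most among classes. Ndufa4 (chr6:11900292-11907497, minus strand, GRCm38) was first assigned to complex I and is now counted with complex IV, and its paralog Ndufa4l2 lies at chr10:127514967-127517154 on the plus strand. Ndufa4l2 measured 60.2 and 150 CPM in Aspn-high, 349 and 502 CPM in Cnmd-high, 81.5 and 124 CPM in Col10a1-high, 75.2 and 224 CPM in Ifitm5-high and 1133 and 1358 CPM in Rgs5-high cells at day 10 and day 14. Ndufa4 measured 429 and 369 CPM, 271 and 268 CPM, 157 and 146 CPM, 341 and 327 CPM, and 151 and 119 CPM in the same order. Rgs5-high cells were thus highest for Ndufa4l2 and lowest for Ndufa4 at both days, though at day 10 the Ndufa4 level of Col10a1-high cells did not differ from theirs beyond counting error. Ndufa4l2 was 18.8-fold and 9.07-fold higher in Rgs5-high than in Aspn-high cells, and 5.79-fold and 3.35-fold higher in Cnmd-high than in Aspn-high cells. The part of background RNA in the Aspn-high level under these folds was not tested. From Cnmd-high to Col10a1-high cells Ndufa4l2 was 4.28-fold and 4.05-fold lower, and Ndufa4 was 1.73-fold and 1.83-fold lower as well.

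Of the UMIs of the pair, Ndufa4l2 took 88.2% and 91.9% in Rgs5-high cells, 56.3% and 65.2% in Cnmd-high, 34.2% and 45.9% in Col10a1-high, 18.1% and 40.6% in Ifitm5-high and 12.3% and 28.9% in Aspn-high cells. Within a class the split varied. In Rgs5-high cells at day 14 the quartiles of Ndufa4l2 ran from 795 to 1777 CPM, and 96.3% of cells held more UMIs of it than of Ndufa4. In Cnmd-high cells they ran from 0 to 681 CPM with a median of 173 CPM, and 44.2% held more of it. Cells thinned to 2000 UMIs gave a Ndufa4l2 UMI in 86.2% of Rgs5-high, 39.9% of Cnmd-high, 18.3% of Ifitm5-high, 15.3% of Col10a1-high and 14.7% of Aspn-high cells at day 14 (unthinned 99.0%, 70.5%, 43.2%, 42.7% and 35.1%). Cells with Ptprc gave 12.4% at day 14 (interval 7.86% to 18.4%, 169 cells, median depth 9210 UMIs) and 0.663% at day 7 (6188 cells, 5045 UMIs). At day 14 the last 3 classes thus lay within the interval of the Ptprc cells, and the Rgs5-high and Cnmd-high cells above it. Unthinned, the Ptprc cells of day 14 held 334 Ndufa4l2 UMIs in 40 of 173 cells. Whether they measure background RNA was not tested.

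Cox4i2 (chr2:152754173-152765037, plus strand) showed a second pattern. It measured 28.1 and 32.9 CPM in Aspn-high, 67.9 and 77.8 CPM in Ifitm5-high, 165 and 206 CPM in Cnmd-high, 200 and 307 CPM in Col10a1-high and 284 and 431 CPM in Rgs5-high cells. Its order was the same at both days and, unlike that of Ndufa4l2, put Col10a1-high above Cnmd-high cells (log2 ratio 0.28 and 0.57). Cox4i1 (chr8:120668222-120674207, plus strand) measured 963 and 1008 CPM in Aspn-high, 666 and 724 CPM in Cnmd-high, 959 and 1099 CPM in Col10a1-high, 956 and 1065 CPM in Ifitm5-high and 1108 and 1239 CPM in Rgs5-high cells, so it remained the major isoform in every class. Cox4i2 took 20.4% and 25.8% of the pair in Rgs5-high, 19.9% and 22.1% in Cnmd-high, 17.3% and 21.8% in Col10a1-high, 6.63% and 6.81% in Ifitm5-high and 2.83% and 3.16% in Aspn-high cells. After thinning, 56.4% of Rgs5-high, 34.5% of Col10a1-high and 26.3% of Cnmd-high cells at day 14 had a UMI of it (unthinned 84.8%, 72.6% and 66.3%). The 5.19% of Aspn-high and 11.1% of Ifitm5-high cells lay within the interval of the Ptprc cells of that library (8.28%, 4.60% to 13.5%). Unthinned, the Ptprc cells gave 21.4%, from 208 UMIs in 37 of 173 cells, against 18.2% of Aspn-high and 38.6% of Ifitm5-high cells. Whether the Ptprc cells measure background was not tested. In Rgs5-high cells 83.8% held both isoforms at day 14.

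**Figure D4:**
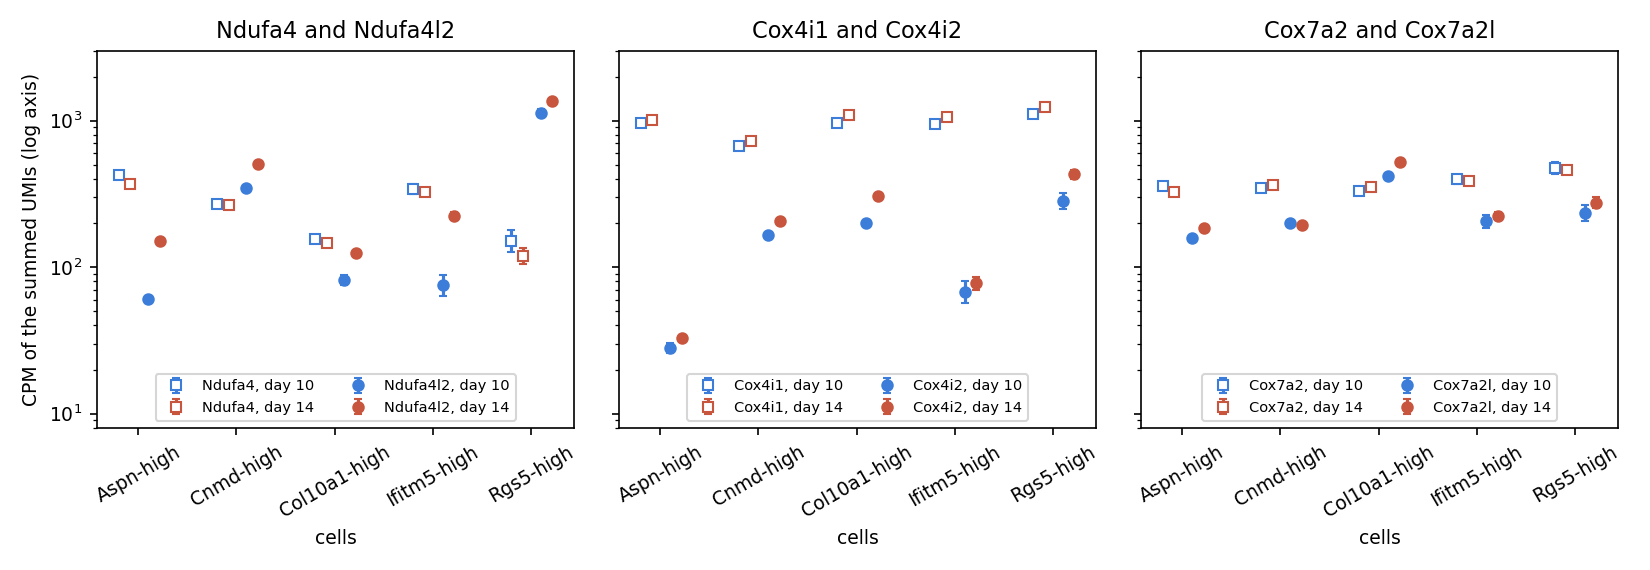
CPM of 3 pairs of paralogs (log axis) in 5 classes at day 10 (blue) and day 14 (red); open squares are the first and filled circles the second gene of a pair, and error bars are 95% Poisson intervals of the UMI count. Ndufa4l2 exceeds Ndufa4 in Cnmd-high and Rgs5-high cells only, Cox4i1 exceeds Cox4i2 in every class, and Cox7a2l exceeds Cox7a2 in Col10a1-high cells only.

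The remaining isoforms varied less or were nearly absent. Cox7a2l took 55.5% and 59.7% of the UMIs of Cox7a2 and Cox7a2l in Col10a1-high cells, against 30.6% to 37.3% in the other 4 classes at day 10 and day 14, while Cox7a2 itself measured 333 and 351 CPM there against 359 and 328 CPM in Aspn-high cells. Cox6b2 took at most 7.69% of its pair with Cox6b1 in any class at those days. The isoforms known from striated muscle stayed near 0. Cox6a2 had 15 UMIs in all Cnmd-high cells at day 10 and none in Rgs5-high cells, where 0 of 191 cells at day 14 allows up to 1.91% of cells with a UMI by the exact interval, a limit on detection and not on expression. Cox8b reached 3.42 CPM in Ifitm5-high cells at day 10 (7 UMIs in 6 cells), and Cox7a1 reached 7.31 CPM in Rgs5-high cells at day 10 (7 UMIs in 7 cells).

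Between day 10 and day 14 the members differed little within a class. The summed share of Aspn-high cells was the same within counting error (log2 ratio 0.01, interval -0.0003 to 0.01), and in Cnmd-high, Col10a1-high, Ifitm5-high and Rgs5-high cells it was higher at day 14 by 0.11, 0.09, 0.10 and 0.09. In Cnmd-high cells 72 of 79 members were higher at day 14, against 46.6% of all genes compared. In Ifitm5-high cells 65 were, against 47.3%. Past 1.5-fold in either direction there was 1 member in Aspn-high cells (4.72% of all genes), 0 in Cnmd-high (5.25%), 3 in Col10a1-high (8.61%), 1 in Ifitm5-high (12.1%) and 1 in Rgs5-high cells (18.8%). Ndufa4l2 was the one in Aspn-high (log2 ratio 1.31) and Ifitm5-high cells (1.57), and it was higher in Col10a1-high cells too (0.61). These are the 3 classes whose day 14 shares after thinning lay within the interval of the Ptprc cells. The part of background RNA in these differences was not tested, and they are not read as a change in expression. Cox4i2 was higher in Col10a1-high (0.62) and Rgs5-high cells (0.60). Cox6b2 was lower in Col10a1-high cells (-0.70), from 35 and 55 UMIs. The mt- genes went the other way in the cartilage classes, with -0.19 in Cnmd-high and -0.41 in Col10a1-high cells.

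Other energy genes were listed with earlier results of these data known, and were read beside the members. Counts are set beside the share of all genes past 1.5-fold at both days in the same direction. Of 15 glycolysis genes compared, 6 were higher and none lower past 1.5-fold at both days in Cnmd-high over Aspn-high cells (6.65% and 25% of all genes), with medians of 0.52 and 0.67. They were Slc2a1, a glucose transporter (1.69 and 1.31), Hk2 (1.80 and 1.05), Pfkl (1.60 and 1.38), Pgk1 (1.14 and 1.33), Eno1 (0.93 and 1.03) and Tpi1 (0.67 and 0.80). Of 17 genes around the tricarboxylic acid cycle, 5 were lower and none higher, near the 25% of all genes that were lower: Cs (citrate synthase, -1.13 and -0.84), Dlst, Sucla2, Pdha1 and Dlat. Of 7 regulators of mitochondrial biogenesis 1 was lower, Esrra, a nuclear receptor that acts on mitochondrial genes (-1.10 and -1.45). Of 15 electron carrier and import genes 3 were lower, Etfa, Etfb and Etfdh, which carry electrons from fat oxidation. Both counts stand against the same 25% of all genes. In Col10a1-high over Cnmd-high cells 4 glycolysis genes were lower (Eno1, Pkm, Pgam1 and Tpi1, against 15.5% of all genes), and of 7 regulators of mitochondrial biogenesis 3 were higher, against 16% of all genes: Gabpa (0.88 and 0.83), Gabpb1 (1.03 and 0.88), which together form NRF2, and Yy1 (0.65 and 0.61). Of the 17 tricarboxylic acid cycle genes 2, Suclg1 and Suclg2, were lower there, and of the 15 carrier and import genes 1, Timm23, against 15.5% of all genes. In Ifitm5-high over Aspn-high cells 4 glycolysis genes were lower (Slc2a1, Pfkp, Gapdh and Eno1), near the 24.6% of all genes that were lower, and of 15 electron carrier and import genes 1, Slc25a5, the ADP/ATP carrier, was higher (0.71 and 1.22, against 5.94% of all genes). Of the 17 tricarboxylic acid cycle genes 1, Fh1, was lower there (-0.61 and -0.90), against 24.6% of all genes. Slc25a5 was higher in Rgs5-high over Aspn-high cells as well (0.64 and 0.96), with Vdac2 and Etfb, as 3 of 15 carrier and import genes. Hk1 and Pfkp were higher there as 2 of 15 glycolysis genes, and Gabpa as 1 of 7 regulators, against 12.1% of all genes. No tricarboxylic acid cycle gene passed there, while 14 of 17 lay above 0 at both days, against 3179 of the 7664 genes compared. Of 28 assembly factors compared, none passed in Cnmd-high or Rgs5-high over Aspn-high cells. In Ifitm5-high over Aspn-high cells 2 were lower (Ttc19 and Ndufaf8), against 24.6% of all genes. In Col10a1-high over Cnmd-high cells 1, Coa3, a factor for complex IV, was lower (-2.44 and -2.18), against 15.5% of all genes. There 2, Cox20 (1.07 and 0.95) and Coa5, were higher, against 16% of all genes. The medians of all genes in these comparisons, -0.30 and -0.30, 0.11 and 0.02, -0.33 and -0.33, and 0.00 and 0.06, set the scale for each list.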

How the data were processed

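The authors sequenced 3 libraries of sorted callus cells (10x Genomics 3′ chemistry) and deposited, for each cell, the UMI counts of every gene as whole numbers that had not been scaled, from reads aligned to mm10. The submitters' processing notes name Cell Ranger 3.0, the matrix headers Cell Ranger 3.1.0, and the study's methods a later version. No limit on cells had been applied to the deposited matrices, so the study's limits were applied here. A cell entered a class with at least 5 UMIs of the gene and at least 2000 CPM of Aspn or Cnmd, 10000 CPM of Col10a1, 500 CPM of Ifitm5 or 1000 CPM of Rgs5; no doublet caller was run, and cells high for several genes were left out. UMIs were summed over a class, shares were given with exact binomial (Clopper-Pearson) and CPM with exact Poisson intervals, and ratios with the exact interval of the 2 counts. With 1 library a day there was no test and no p-value. Genes with a mean of at least 10 CPM over the 5 classes at day 10 and day 14 were compared, and a call needed 1.5-fold at both days. Shares of cells with a UMI were taken after thinning cells to 2000 UMIs. Members named were the leading 2 of each complex, those past 1.5-fold, the extremes of each comparison, the Sdh genes and the paralogous isoforms; a few more (Atp5k, Ndufa11, Uqcrq, Uqcrfs1, Cox8a) were chosen after their values were seen. The values of 1 member are not reported here, though it is in the counts and sums. The members, lists and limits were chosen with earlier results of these data known. Gene positions came from GENCODE M21 (GRCm38) and promoters from RefSeq (GRCm38.p6). The fold calls were tried on simulated counts of 1 comparison (Rgs5-high over Aspn-high cells, day 14) with counting error only. That trial does not cover the call at both days or the spread between cells and animals. Python 3.11.15, numpy 2.4.6, scipy 1.17.1, pandas 2.3.3 and matplotlib 3.10.9 were used.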

Additional observations from a re-analysis of the deposited data

Results flagged for a closer look

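The summed members in Ifitm5-high over Aspn-high cells had log2 ratios of opposite sign at day 10 (-0.053) and day 14 (0.041), each with an interval of counting error that left out 0; the difference between the libraries was not tested. The summed mt- genes did the same in Rgs5-high over Aspn-high cells, with -0.085 at day 10 and 0.086 at day 14, also not tested. From day 10 to day 14 the summed mt- genes were higher in Rgs5-high cells (log2 ratio 0.043) and lower in Aspn-high (-0.13), Cnmd-high (-0.19) and Col10a1-high cells (-0.41); these differences among classes were not tested, and day and library cannot be told apart.

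Cox6a2, the muscle and heart isoform of Cox6a1, had 328 UMIs in the cells with Ptprc at day 7, which no comparison used. They lay in 48 of 6570 cells, up to 40 in 1 cell, at 6.52 CPM (95% interval 5.83 to 7.26), against at most 0.387 CPM in any class of cells without Ptprc. No Cox6a2 UMI was seen in the 173 cells with Ptprc at day 14.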

How the results depend on the processing

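No paired analysis was possible because each day had 1 library, and for the same reason no replicate could be left out. The values below are mean log2 ratios of the summed share over day 10 and day 14, with -0.27 (Cnmd-high over Aspn-high), 0.03 (Col10a1-high over Cnmd-high), -0.01 (Ifitm5-high over Aspn-high) and 0.27 (Rgs5-high over Aspn-high) as reported, and the day 14 over day 10 ratio of Aspn-high cells (0.0051). With class limits doubled, Cnmd/Aspn was -0.31, Col10a1/Cnmd 0.080, Ifitm5/Aspn 0.068 and the day ratio 0.028. With limits halved, Col10a1/Cnmd was 0.021, Ifitm5/Aspn -0.057 and the day ratio -0.011. With cells high for several genes given to the highest, Cnmd/Aspn was -0.26 and the day ratio 0.013. With no limit on mt- UMIs, Cnmd/Aspn was -0.27, Col10a1/Cnmd 0.022 and the day ratio 0.012, and with no upper limit on genes Cnmd/Aspn was -0.26, Col10a1/Cnmd 0.019 and Rgs5/Aspn 0.25. With mt- genes left out of the total, Cnmd/Aspn was -0.29. With the 50 genes of most UMIs left out, the 4 were -0.12, 0.11, 0.26 and 0.19 in the order above and the day ratio 0.013. As a mean per cell, Col10a1/Cnmd was 0.022, Ifitm5/Aspn 0.022 and the day ratio 0.013.

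4 alternatives were chosen after seeing the data, the sums without Ndufa4l2 or both Ndufa4 paralogs being given beside their results. Cells of 10000 to 20000 UMIs gave -0.33, 0.13, -0.025 and 0.34 and a day ratio of 0.022. Without cells with a cycling marker Cnmd/Aspn was -0.26, Col10a1/Cnmd 0.044, Rgs5/Aspn 0.23 and the day ratio 0.030. Relative to the median gene the 4 were 0.029, -0.031, 0.32 and 0.24. The counts of members past 1.5-fold (8, 6, 2 and 6) became 15 in Cnmd-high over Aspn-high cells with limits doubled and with cells of 10000 to 20000 UMIs, 4 relative to the median gene and 3 at 2-fold. The count was 2 in Col10a1-high over Cnmd-high cells at 2-fold, and in Ifitm5-high over Aspn-high cells it was 4 without the 50 genes and 7 relative to the median gene. Without thinning, 70.5% of Cnmd-high and 99.0% of Rgs5-high cells had a Ndufa4l2 UMI at day 14, and 66.3% and 84.8% a Cox4i2 UMI. The cause of these differences was not tested. Leaving out cells with more than 1% of UMIs from neutrophil markers moved none of these values beyond counting error. It left the day 10 classes unchanged and kept 3057 of 3072 Aspn-high, 1291 of 1293 Cnmd-high and 1073 of 1076 Col10a1-high cells at day 14. With so few cells left out it could hardly move a value, and it does not address neutrophil RNA below that limit. With 1 library a day, only counting error is known, and the spread between animals is not.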
